A study of Rattus norvegicus with 17 samples.

Results

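Smooth muscle cells in the wall of an artery set its diameter by contraction. Their contractile apparatus is built from thin filaments of smooth muscle actin, thick filaments of myosin, intermediate filaments and the dense bodies and dense plaques that anchor actin. Contraction starts when myosin light chain kinase phosphorylates the regulatory light chain of myosin, myosin phosphatase removes the phosphate, and further kinases restrain the phosphatase. Transcription of many of these genes depends on serum response factor (SRF), which binds a short DNA element called the CArG box together with myocardin or the related factors MRTF-A and MRTF-B. In cerebral arteries this apparatus underlies myogenic tone, the constriction that pressure evokes.

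The gene set described here holds 45 genes of this apparatus and its regulators, picked by gene symbol and role. Of these, 40 were measured, each by 1 probe set, out of 13179 genes tested in all. Acta2, Cnn1, Cnn2, Myl6 and Mkl2 had no probe set that carried the symbol alone and were not analysed here. The first 2 of them, the alpha actin and the calponin of smooth muscle, are defining genes of the cell, so these have no value below. Of the other defining genes of smooth muscle in the set, Tagln and Myh11 were strongly measured in every group. They had 13.09 or more and 12.69 or more on each array, on a log2 scale whose median over all values was 7.4. The lowest values of Mylk, Srf and Myocd were 10.90, 8.94 and 8.02, all in occluded MCAs.

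RNA came from single middle cerebral arteries (MCAs) of female Wistar rats aged 12 weeks, none of them in proestrus. The 5 occluded MCAs were the right arteries of rats in which a filament, placed under isoflurane, had blocked the vessel for 2 h and blood had then returned for 3 h (transient MCA occlusion, tMCAO). The 6 non-occluded MCAs were the left arteries of such rats, and 5 of these rats also gave the occluded artery. The 6 control MCAs came from rats that were not operated. There was no sham group, so surgery, anaesthesia and occlusion cannot be told apart in the comparisons with controls, and side and occlusion cannot be told apart between the arteries of a rat. Each array held 1 artery, values are log2 signals, and a log2 fold change of 1 is a doubling of the signal. In whole arteries, fewer smooth muscle cells and less RNA per cell cannot be told apart.

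Some arrays stood apart before any group was compared. The titles of the arrays begin with a number whose meaning the labels do not give. In the control group, the 3 arrays numbered 2, 3 and 4 (rats F36, F21 and F4) lay above the 3 arrays numbered 13, 15 and 20 (rats F16, F22 and F26), without overlap, for 32 of the 40 members and below them for 1, Myh10. Among all genes the same was true of 12.8% and 14.9%. The median member differed by 0.34 log2 units between these control arrays, against 0.01 for the median gene. The astrocyte markers averaged 1.02 log2 units lower and the microglia and macrophage markers 0.71 lower in the low-numbered control arrays, again without overlap. Smooth muscle markers outside the members averaged 0.44 higher and fibroblast markers 0.14 higher there, also without overlap, while the other marker lists overlapped. Among non-occluded MCAs, rat F19 (number 18) had the lowest value for 28 of the 40 members, and its mean correlation with the other arrays of its group was 0.9757, against 0.9825 to 0.9846 for the other 5. Control rat F26 (number 20) had the lowest value for 32 members, with a mean correlation of 0.9687, against 0.9712 to 0.9800 for the other 5. Because 3 of the occluded, 3 of the non-occluded and 3 of the control arrays were numbered 1 to 10, and the other 2, 3 and 3 were numbered 12 to 20, each comparison was also made within these ranges and with the range as a block.

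Most of the measured genes of the set were called lower in the occluded MCAs. The counts differed between the role classes, a difference that was not tested. By limma over all 17 arrays, with p adjusted over all probe sets by the Benjamini-Hochberg method and a threshold of 0.05, 22 of the 40 members fell and 5 rose in occluded against control MCAs, and 13 did not pass the test. Over all genes tested, 22.8% fell and 19.3% rose in this comparison. The median log2 fold change of the members was -0.33, against -0.02 over all genes. Of the members, 15 had all occluded arrays below all control arrays and 3 had them all above, while 12.5% and 12.6% of all genes did so. The members that fell were 2 of 8 thin filament genes, 1 of 4 myosin genes and 1 of 3 intermediate filament genes. They were also 6 of 8 actin linkers, 4 of 7 LIM and Z-disc-like genes, 6 of 7 light-chain regulators and 2 of 3 transcription factors. Those that rose were Tpm4, Myh9, Des, Rock2 and Mkl1.

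The count of members that fell differed between the ranges of array numbers, which differ in their occluded arrays, their controls and their size. Among arrays numbered 1 to 10, 30 members fell and 4 rose (median log2 fold change -0.52), whereas among arrays numbered 12 to 20, where 2 occluded arrays met 3 control arrays, 7 fell and 3 rose (median -0.15). The shares of all genes that fell were 19.3% and 9.28% in these ranges, and 18.9% and 7.64% rose. With the range as a block, 27 fell and 5 rose, beside 23.5% and 19.4% of all genes. With control F26 and non-occluded F19 both left out, 27 fell and 5 rose, beside 23.4% and 18.8%. The log2 fold change was negative for 35 of the 40 members in the lower range and for 31 in the upper range. The 7 that fell in the upper range were Nexn, Actn4, Sorbs2, Pdlim3, Vim, Ppp1r12a and Myh10, and Des, Rock2 and Mkl1 rose in it. The occluded arteries of rats F12 and F8 are the only ones in that range.

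**Figure D1:**
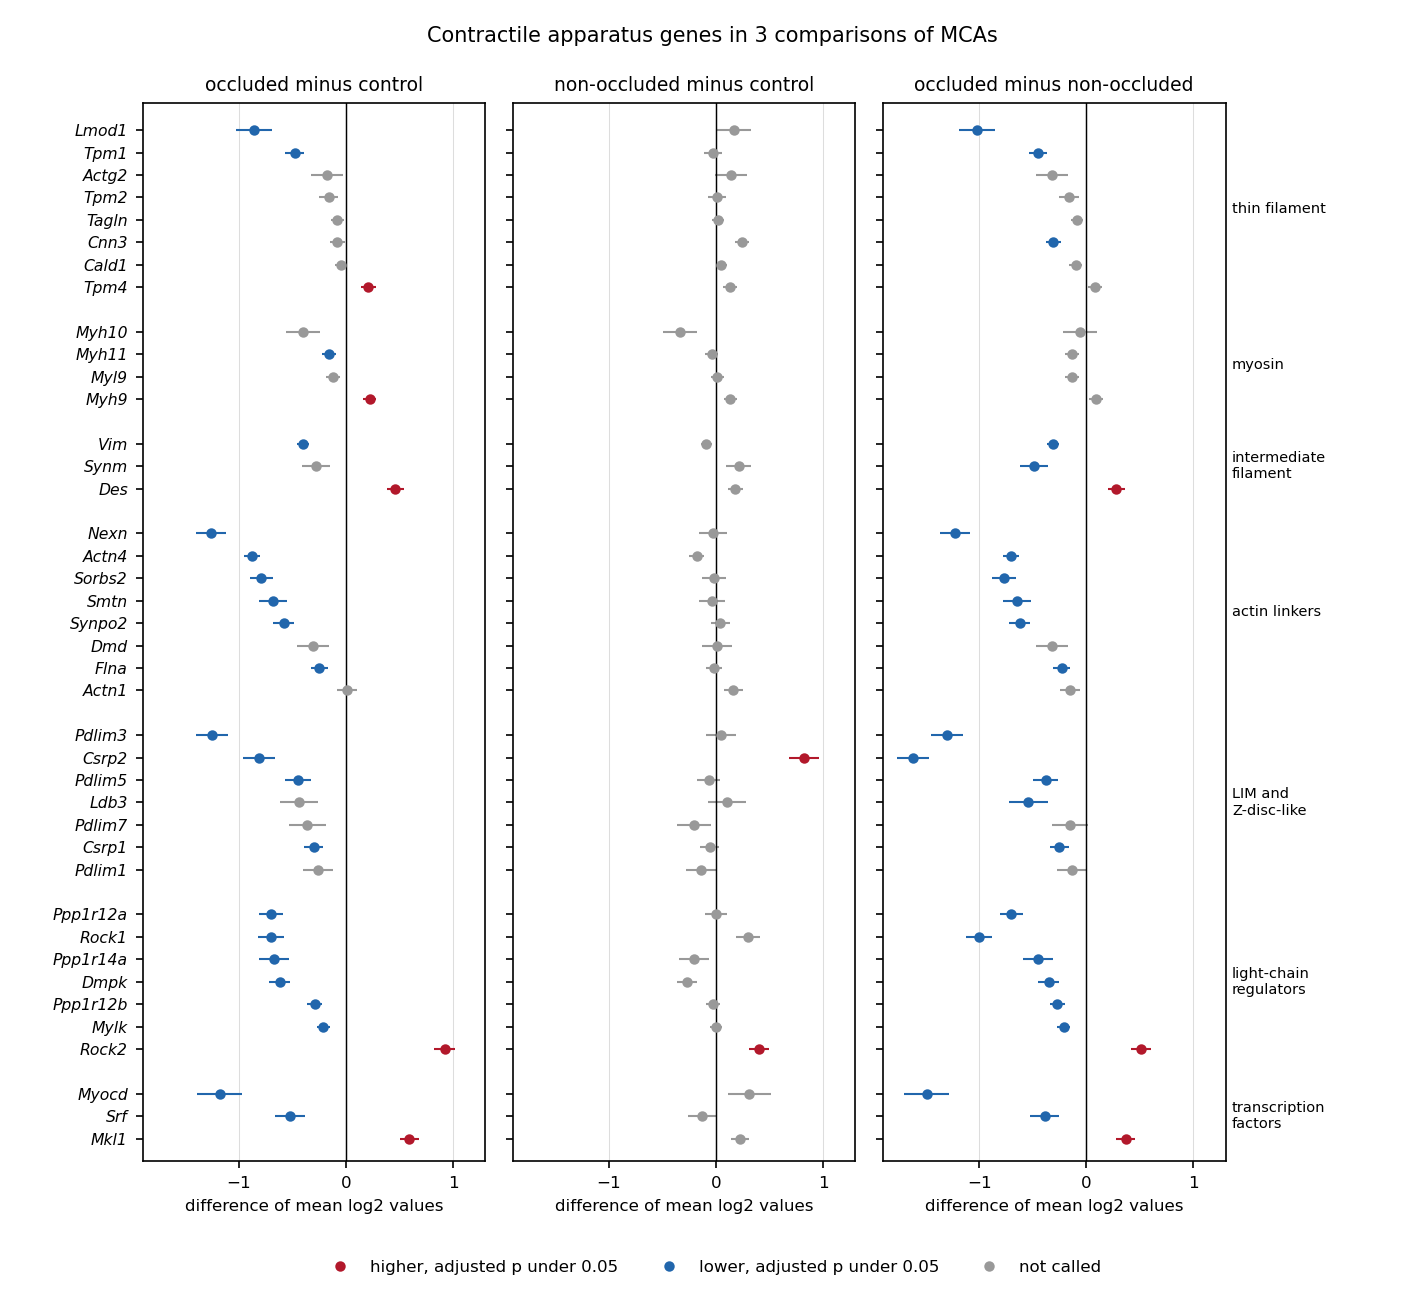
Difference of mean log2 signals (x axis) for the 40 measured genes of the contractile apparatus, grouped by role, in 3 comparisons, with bars of 1 SE from limma. Of the members, 22 fell and 5 rose in occluded against control MCAs, none fell and 2 rose in non-occluded against control MCAs, and 24 fell and 3 rose in occluded against non-occluded MCAs.

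Among the thin filament genes, 2 of 8 fell, 1 rose and 5 did not pass the test in occluded against control MCAs (median -0.12). These counts are near the shares of all genes, 22.8% lower and 19.3% higher. Lmod1 encodes leiomodin 1, which nucleates actin filaments in smooth muscle. Its log2 signal was 9.95, 9.53, 9.32, 9.02 and 9.47 in the occluded MCAs of rats F12, F10, F8, F15 and F33, against a range of 9.98 to 10.63 with a median of 10.34 in control MCAs. All occluded arteries lay below all controls, with the artery of rat F12 just under the lowest of them. The log2 fold change was -0.86 (SE 0.17, adjusted p = 4.60e-04, limma). Within the array numbers 1 to 10 it was -1.25 (adjusted p = 4.09e-05, limma) and within 12 to 20 it was -0.41 (adjusted p = 0.261, limma).

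Tpm1 and Tpm4 encode tropomyosins, which lie along the actin filament. Tpm1 had 10.22, 10.00, 9.87, 10.03 and 10.07 in the occluded MCAs in the same order of rats, against 10.33 to 10.73 (median 10.49) in controls. The groups did not overlap, and the log2 fold change was -0.48 (SE 0.087, adjusted p = 2.56e-04, limma). Tpm4 had 11.05, 11.27, 10.95, 11.11 and 11.29 in the occluded MCAs, against 10.83 to 11.05 (median 10.89) in controls. The ranges overlapped in the arteries of rats F12 and F8, and the log2 fold change was 0.21 (SE 0.068, adjusted p = 0.0186, limma). This call was lost without occluded F10 or without occluded F33 (adjusted p 0.0601 to 0.0611, limma).

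Tagln, which encodes the actin-bundling protein SM22, did not pass the test. It had 13.25, 13.27, 13.09, 13.11 and 13.16 in the occluded MCAs, against 13.15 to 13.31 (median 13.27) in controls. These ranges overlapped, and the log2 fold change was -0.08 (SE 0.057, adjusted p = 0.32, limma). The remaining genes of the class, Actg2 (gamma smooth muscle actin), Cald1 (caldesmon), Tpm2 and Cnn3 (calponin 3), had log2 fold changes of -0.18, -0.05, -0.16 and -0.08, none of which passed.

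Of the 4 myosin genes 1 fell, 1 rose and 2 did not pass the test (median -0.14), again near the shares of all genes (22.8% lower, 19.3% higher). Myh11, the heavy chain of smooth muscle myosin, had 12.85, 12.81, 12.69, 12.79 and 12.76 in the occluded MCAs, against 12.81 to 13.08 (median 12.95) in controls. The occluded arteries lay at the low end of the control range and overlapped it. The log2 fold change was -0.16 (SE 0.064, adjusted p = 0.0457, limma). Leaving out any one of 7 of the 11 arrays (controls F21, F36 and F4, occluded F10, F15, F33 and F8) ended the call, with adjusted p of 0.0645 to 0.109. Myh9, a non-muscle myosin heavy chain, had 10.44, 10.32, 10.40, 10.27 and 10.38 in the occluded MCAs, against 10.06 to 10.35 (median 10.10) in controls. Only control F26, at 10.35, reached into the occluded range, and the log2 fold change was 0.22 (SE 0.064, adjusted p = 0.0112, limma). Myh10, another non-muscle heavy chain, and Myl9, the regulatory light chain of smooth muscle, had log2 fold changes of -0.40 (SE 0.16, adjusted p = 0.0575, limma) and -0.12 (SE 0.064, adjusted p = 0.165, limma). Myh10 passed without control F21, F36 or F4 or without occluded F8 (adjusted p 0.0267 to 0.0497) and with the range of array numbers as a block (adjusted p 0.0353), and Myl9 without control F26 (adjusted p 0.0479).

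The intermediate filament genes moved in opposite directions. Des encodes desmin, the muscle intermediate filament protein, and had 13.20, 13.25, 13.12, 13.25 and 13.27 in the occluded MCAs, against 12.57 to 12.91 (median 12.77) in controls. Vim encodes vimentin, which many mesenchymal cells carry, and had 12.93, 13.04, 12.89, 12.77 and 13.02 in the occluded MCAs, against 13.25 to 13.37 (median 13.34) in controls. For both genes the occluded and control arrays did not overlap, with desmin above and vimentin below. The log2 fold change was 0.46 (SE 0.077, adjusted p = 1.10e-04, limma) for Des and -0.40 (SE 0.055, adjusted p = 1.36e-05, limma) for Vim. Desmin rose within both ranges of array numbers, by 0.38 (adjusted p = 0.00289, limma) and 0.52 (adjusted p = 0.00943, limma). Synm, which encodes synemin, a partner of desmin, had a log2 fold change of -0.28 (SE 0.13, adjusted p = 0.0949, limma), and it passed without control F22 or F26 (adjusted p 0.0389 to 0.0499) and with the range of array numbers as a block (adjusted p 0.0226).

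**Figure D2:**
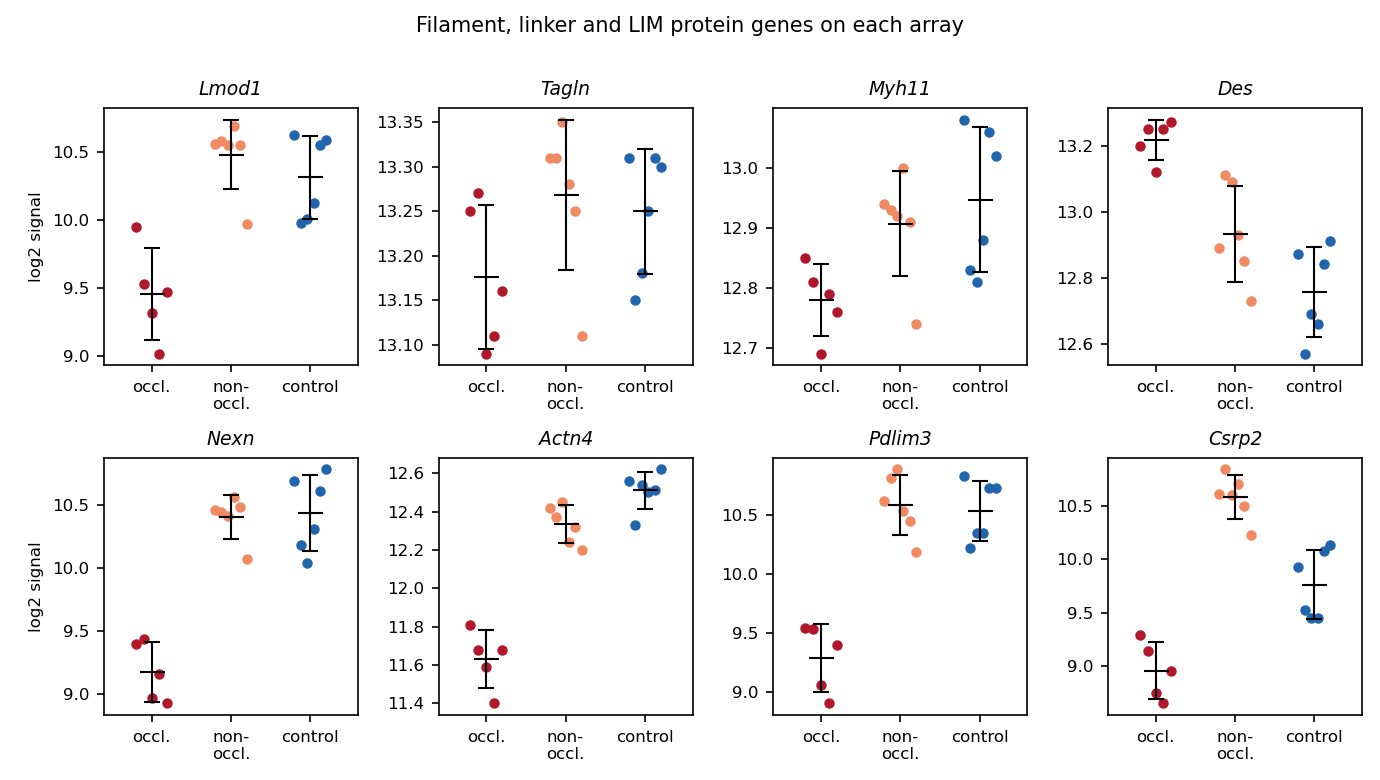
Log2 signal (y axis, not starting at 0) of 8 filament, linker and LIM protein genes on each array in 5 occluded, 6 non-occluded and 6 control MCAs, with the mean and SD as bars. Desmin sits above all controls at 13.12 to 13.27 in the occluded MCAs, Nexn and Pdlim3 sit below all controls, and Csrp2 is above the controls in non-occluded and below them in occluded MCAs.

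The genes for proteins that tie actin to dense bodies and to the membrane moved one way where they were called, with 6 of 8 lower, none higher and a median of -0.63. Nexn encodes nexilin, an actin-binding protein of Z-discs and cell adhesions. It had 9.40, 9.44, 8.97, 9.16 and 8.93 in the occluded MCAs, against 10.04 to 10.78 (median 10.46) in controls. The highest occluded artery was well below the lowest control, with a log2 fold change of -1.26 (SE 0.14, adjusted p = 1.07e-06, limma), a 2.39-fold lower signal. Within the array numbers 1 to 10 and 12 to 20 the log2 fold change of Nexn was -1.52 (adjusted p = 1.01e-05, limma) and -0.99 (adjusted p = 0.0066, limma).

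Actn4 encodes alpha-actinin 4, a crosslinker of actin in non-muscle cells and smooth muscle. Its signal was 11.81, 11.68, 11.59, 11.40 and 11.68 in the occluded MCAs, against 12.33 to 12.62 (median 12.52) in controls. Again no artery overlapped, and the log2 fold change was -0.88 (SE 0.073, adjusted p = 4.51e-08, limma). Its relative Actn1 had 11.80 to 12.00 (median 11.95) in occluded MCAs, against 11.53 to 12.13 (median 11.96) in controls, a log2 fold change of 0.01 (SE 0.093). The 2 actinin probe sets therefore differed in what they showed, but the difference between them was not tested.

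Sorbs2 encodes an adaptor that binds actinin and vinculin at adhesions. It had 11.16, 11.12, 10.87, 10.81 and 10.84 in the occluded MCAs, against 11.33 to 12.05 (median 11.78) in controls, without overlap and with a log2 fold change of -0.79 (SE 0.11, adjusted p = 2.47e-05, limma). The other called linkers were Smtn (smoothelin, a marker of contractile smooth muscle) at -0.68, Synpo2 (synaptopodin 2, an actin-binding protein of Z-discs) at -0.58 and Flna (filamin A, an actin crosslinker) at -0.25. Dmd, which encodes dystrophin, had -0.31 (SE 0.15, adjusted p = 0.102, limma), and its adjusted p was 0.0204 without control F26 and 0.0332 with the range of array numbers as a block.

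Of the 7 LIM and Z-disc-like genes, 4 fell, none rose and 3 did not pass (median -0.44). PDZ and LIM domain proteins bind actinin through their PDZ domain and recruit other proteins through their LIM domains. Pdlim3 had 9.54, 9.53, 9.06, 8.90 and 9.40 in the occluded MCAs, against 10.22 to 10.83 (median 10.54) in controls. The groups were well apart, with a log2 fold change of -1.25 (SE 0.15, adjusted p = 2.86e-06, limma). Pdlim5 had 10.63, 10.63, 10.29, 10.42 and 10.45, against 10.66 to 11.17 (median 10.92) in controls. Here the highest occluded and the lowest control values nearly met, and the log2 fold change was -0.45 (SE 0.12, adjusted p = 0.00515, limma).

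Csrp2 encodes a cysteine-rich LIM protein of smooth muscle (CRP2). It had 9.29, 9.14, 8.75, 8.65 and 8.95 in the occluded MCAs, 10.23 to 10.84 (median 10.61) in non-occluded MCAs and 9.45 to 10.13 (median 9.73) in controls. The 3 groups did not overlap at all, with the occluded arteries lowest, the controls between and the non-occluded arteries highest. The log2 fold change in occluded against control MCAs was -0.81 (SE 0.15, adjusted p = 3.09e-04, limma). It was -1.13 (adjusted p = 7.20e-05, limma) among arrays numbered 1 to 10 and -0.45 (adjusted p = 0.102, limma) among those numbered 12 to 20. Csrp1 also fell, by 0.30 on the log2 scale, whereas Ldb3, Pdlim7 and Pdlim1 had log2 fold changes of -0.44, -0.36 and -0.26 that did not pass. With the range of array numbers as a block Ldb3 passed at -0.48 (adjusted p = 0.0112, limma) and Pdlim7 at -0.40 (adjusted p = 0.0115, limma), and with rat as a random block Ldb3 passed at -0.47 (adjusted p = 0.0477, limma).

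All 7 regulators of the myosin light chain were called in occluded against control MCAs, 6 lower and 1 higher (median -0.62). Mylk encodes the kinase of the light chain. Its signal was 11.08, 11.06, 10.91, 10.99 and 10.90 in the occluded MCAs, against 11.04 to 11.31 (median 11.20) in controls. Rats F12 and F10 lay within the control range and the other 3 below it, with a log2 fold change of -0.21 (SE 0.061, adjusted p = 0.0108, limma). Ppp1r12a encodes MYPT1, the subunit that directs myosin phosphatase to myosin, and had 10.61, 10.52, 10.25, 10.51 and 10.49 in the occluded MCAs, against 10.87 to 11.46 (median 11.17) in controls. These did not overlap, and the log2 fold change was -0.70 (SE 0.11, adjusted p = 5.46e-05, limma). Its relative Ppp1r12b fell by 0.29 on the log2 scale, and Ppp1r14a, which encodes the phosphatase inhibitor CPI-17, fell by 0.67. Dmpk, the myotonic dystrophy protein kinase, fell by 0.62.

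Rock1 and Rock2 encode related kinases that restrain myosin phosphatase, and their probe sets moved in opposite directions. Rock1 had 10.84, 10.29, 10.23, 10.38 and 10.15 in the occluded MCAs, against 10.81 to 11.24 (median 11.09) in controls. Only the artery of rat F12 reached the control range, and the log2 fold change was -0.70 (SE 0.12, adjusted p = 1.06e-04, limma). Rock2 had 11.82, 11.85, 11.55, 11.95 and 11.66 in the occluded MCAs, against 10.49 to 11.06 (median 10.89) in controls. Every occluded artery was well above every control, and the log2 fold change was 0.92 (SE 0.095, adjusted p = 6.04e-07, limma). Rock2 rose by 0.79 (adjusted p = 1.01e-04, limma) within the lower range of array numbers and by 1.01 (adjusted p = 0.00147, limma) within the upper range. Rock1 differed by -0.94 (adjusted p = 2.49e-04, limma) and -0.40 (adjusted p = 0.134, limma) in these ranges.

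**Figure D3:**
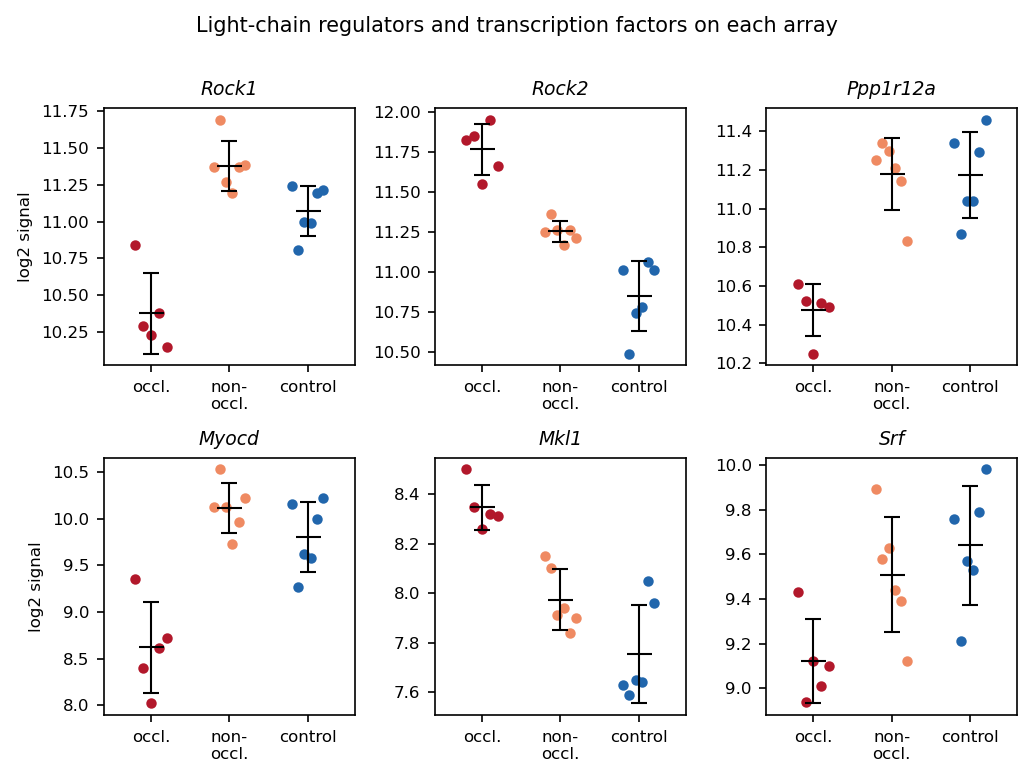
Log2 signal (y axis, not starting at 0) of 3 light-chain regulators and 3 transcription factors on each array in 5 occluded, 6 non-occluded and 6 control MCAs, with the mean and SD as bars. Rock2 and Mkl1 sit above all controls in the occluded MCAs, while Rock1 and Myocd overlap the controls only through the artery of rat F12, at 10.84 and 9.35.

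The transcription factors were also split. Myocd encodes myocardin, the coactivator of SRF found in smooth and cardiac muscle. It had 9.35, 8.40, 8.02, 8.61 and 8.72 in the occluded MCAs, against 9.27 to 10.22 (median 9.81) in controls. Of the occluded arteries only that of rat F12 lay within the control range. The log2 fold change was -1.18 (SE 0.21, adjusted p = 1.79e-04, limma), a 2.27-fold lower signal, and among arrays numbered 1 to 10 and 12 to 20 it was -1.54 (adjusted p = 8.87e-05, limma) and -0.80 (adjusted p = 0.125, limma). Mkl1 encodes MRTF-A, which enters the nucleus when free actin monomers become scarce. It had 8.50, 8.35, 8.26, 8.32 and 8.31 in the occluded MCAs, against 7.59 to 8.05 (median 7.65) in controls. The groups were apart, with a log2 fold change of 0.59 (SE 0.088, adjusted p = 3.21e-05, limma). Srf had 9.43, 8.94, 9.12, 9.01 and 9.10 in the occluded MCAs, against 9.21 to 9.98 (median 9.66) in controls. Rat F12 again lay within the control range, and the log2 fold change was -0.52 (SE 0.14, adjusted p = 0.00525, limma).

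The CArG box, the element that SRF binds, was looked for in the RefSeq promoter windows of the members, which run from 250 bases before to 50 after an annotated start (build GRCr8). The element was searched by its strict form, which reads the same on both strands, so that 1 search covers both. Windows were at hand for 35 of the 45 members, 39 windows in all. The members without one were Tagln, Lmod1, Myh11, Myl9, Actn4, Sorbs2, Pdlim3, Myocd, Mkl1 and Mkl2. The box was in 4 of the 39 windows (10.3%), those of Srf, Ldb3, Cnn2 and 1 of the 3 windows of Dmd, against 548 of all 33469 windows (1.64%). A match of letters is a description of the sequence and not a binding site. The 120 bases before the start are shown for the 3 measured genes among them, 5′ to 3′, because their own promoters carry the letters of the element, which stands in capitals. Srf, which codes for the factor itself, holds 2 boxes that begin 81 and 61 bases before the start, Ldb3 holds 1 that begins 52 bases before it and Dmd 1 that begins 98 bases before it.
Srf (chr9:21923956-21924075, plus strand): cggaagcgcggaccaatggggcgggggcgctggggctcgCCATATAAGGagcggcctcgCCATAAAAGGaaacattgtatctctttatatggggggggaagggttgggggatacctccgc
Ldb3 (chr16:9924680-9924799, minus strand): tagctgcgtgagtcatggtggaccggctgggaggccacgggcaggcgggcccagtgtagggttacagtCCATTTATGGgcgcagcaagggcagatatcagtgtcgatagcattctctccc
Dmd (chrX:51205966-51206085, plus strand): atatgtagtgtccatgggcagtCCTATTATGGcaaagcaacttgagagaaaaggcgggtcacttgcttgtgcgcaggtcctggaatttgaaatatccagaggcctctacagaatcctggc
Of these 3 genes, Srf fell in occluded against control MCAs, while Ldb3 and Dmd had log2 fold changes of -0.44 and -0.31 with adjusted p of 0.0658 and 0.102 (limma). Without control F26 the adjusted p of Ldb3 was 0.0228, and without control F16 it was 0.0273, while over all 11 arrays left out in turn it reached 0.149.

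The non-occluded MCAs, compared with the controls, showed few changes in this gene set. By limma, 2 of 40 members rose, none fell and 38 did not pass the test, with a median log2 fold change of 0.01. Over all genes, 1.79% rose and 2.12% fell. At an unadjusted p under 0.05 (limma) there were 7 members higher and 3 lower, but the share of all genes at this threshold was not counted. Significance analysis of microarrays at a q of 0 called 1 member higher and none lower. The members that rose were Csrp2 and Rock2. The non-occluded arrays lay above all control arrays for 3 members, these 2 and Cnn3, and below them for none, against 1.35% and 1.81% of all genes.

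Csrp2 rose by 0.82 log2 units in the non-occluded MCAs (SE 0.14, adjusted p = 0.00374, limma), a 1.76-fold higher signal. Among arrays numbered 1 to 10 and 12 to 20 the rise was 0.66 (adjusted p = 0.0299, limma) and 0.97 (adjusted p = 0.0546, limma). Rock2 had 11.17 to 11.36 (median 11.25) in the non-occluded MCAs, against 10.49 to 11.06 (median 10.89) in controls. The groups did not overlap, and the log2 fold change was 0.40 (SE 0.091, adjusted p = 0.0201, limma), with an adjusted p of 0.0503 once non-occluded F15 was left out. Within the ranges of array numbers Rock2 differed by 0.24 (adjusted p = 0.278, limma) and 0.57 (adjusted p = 0.0823, limma), so that neither range alone passed. Cnn3 had 11.04 to 11.48 (median 11.16) in the non-occluded MCAs, against 10.90 to 11.02 (median 10.96) in controls, a log2 fold change of 0.24 (SE 0.067, adjusted p = 0.0597, limma). The adjusted p of Cnn3 was 0.0426 without non-occluded F8 and 0.0319 with the range of array numbers as a block. Markers of other cells that rose in the non-occluded MCAs were Gfap (astrocytes) by 1.03 (adjusted p = 0.0449, limma), Cd163 (macrophages) by 1.13 (adjusted p = 0.0107, limma) and S100a9 (neutrophils) by 1.17 (adjusted p = 0.0168, limma). Each was the only call in its list, of 6 astrocyte, 8 microglia and macrophage and 3 neutrophil markers. The log2 fold change was below 0 for 2, 6 and 0 of these, with medians of 0.14, -0.17 and 0.30. The part of other cells in these results was not tested.

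The 2 comparisons with the controls share the 6 control arrays, so their values stand side by side only. Myocd had a log2 fold change of 0.31 (SE 0.20, adjusted p = 0.424, limma) in the non-occluded MCAs, against -1.18 in the occluded MCAs. Rock1 had 0.30 (SE 0.11, adjusted p = 0.147, limma) in the non-occluded MCAs and -0.70 in the occluded. Desmin and Mkl1 had 0.18 (adjusted p = 0.202, limma) and 0.22 (adjusted p = 0.165, limma) in the non-occluded MCAs. Nexn, Pdlim3, Ppp1r12a and Sorbs2, all lower in occluded MCAs, had -0.03, 0.05, 0.00 and -0.02 in the non-occluded. Dmpk had -0.27 (SE 0.095, adjusted p = 0.136, limma) and an adjusted p of 0.0201 without control F26.

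Occluded MCAs were next set against the non-occluded MCAs, a comparison of means in which the controls enter only through the shared estimate of the spread. Of the 40 members 24 fell, 3 rose and 13 did not pass the test (limma), with a median log2 fold change of -0.32. Over all genes, 15.7% fell and 17.1% rose. The arrays of the groups did not overlap for 15 members that were lower and 3 that were higher in occluded MCAs, against 8.63% and 11.6% of all genes. By class, 3 of 8 thin filament genes, none of 4 myosin genes, 2 of 3 intermediate filament genes, 6 of 8 linkers, 5 of 7 LIM genes, 6 of 7 light-chain regulators and 2 of 3 transcription factors fell. The members that rose were Des, Rock2 and Mkl1. Without non-occluded F19 and control F26, 29 members fell and 3 rose, beside 16.3% and 17.2% of all genes. Among arrays numbered 1 to 10, 25 fell and 2 rose, beside 14% and 15.6% of all genes, and among those numbered 12 to 20, with 2 occluded arrays, 9 fell and none rose, beside 2.36% and 4.58%. Gfap, the only called gene of 6 astrocyte markers here, was also higher in the occluded MCAs, by 1.43 log2 units (SE 0.29, adjusted p = 9.00e-04, limma). Its part in these differences was not tested.

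The largest differences between the arteries were those of Csrp2 at -1.62 (SE 0.15, adjusted p = 3.16e-07, limma) and Myocd at -1.49 (SE 0.21, adjusted p = 2.67e-05, limma). Myocd had 8.02 to 9.35 in the occluded MCAs, against 9.73 to 10.53 (median 10.13) in the non-occluded, so that here the artery of rat F12 was also outside the range of the other group. Pdlim3 and Nexn differed by -1.30 and -1.23, Lmod1 by -1.02 (SE 0.17, adjusted p = 1.30e-04, limma) and the signal of Rock1 was 2-fold lower (SE 0.12 on the log2 scale, adjusted p = 3.71e-06, limma). Rock1 had 10.15 to 10.84 in the occluded MCAs, against 11.19 to 11.69 (median 11.37) in the non-occluded. Rock2 was higher by 0.51 (SE 0.095, adjusted p = 4.11e-04, limma), Mkl1 by 0.37 (SE 0.088, adjusted p = 0.00316, limma) and Des by 0.28 (SE 0.077, adjusted p = 0.00886, limma). Several smaller calls depended on single arrays. Srf, at -0.39 (SE 0.14, adjusted p = 0.0371, limma), lost its call without any one of non-occluded F12, F15 or F33 or occluded F10, F15, F33 or F8 (adjusted p 0.0608 to 0.0941).

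Since 5 rats gave both arteries, the difference can be read within each animal. In all 5 rats 33 of the 40 members were lower in the occluded artery and 3 were higher in it, Des, Rock2 and Mkl1. The 33 include Ppp1r12b, whose signal in rat F15 rounds to 7.37 in both arteries. Over all genes 22.7% were lower and 21.8% higher in every rat. The other 4 members, Tpm4, Myh9, Myh10 and Pdlim5, differed in sign between rats. The difference of Csrp2 ran from -2.18 to -1.33 log2 units and that of Myocd from -1.95 to -0.78. That of Rock2 ran from 0.29 to 0.68. Tagln, which passed no test above, differed by -0.20 to -0.01 and so was lower in each rat, though by little.

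With rat as a fixed block over these 5 rats, 30 members fell and 3 rose, beside 19.4% and 18.9% of all genes in the same fit. Some members fell in this fit but not in the unpaired comparison of all arrays. Among them were Actg2 at -0.44 (adjusted p = 0.00343, limma) and Dmd at -0.38 (adjusted p = 0.0028, limma). Tpm2 was at -0.21 (adjusted p = 0.0218, limma) and Pdlim7 at -0.28 (adjusted p = 0.0224, limma). Actn1 was at -0.20 (adjusted p = 0.0254, limma) and Myh11 at -0.16 (adjusted p = 0.0492, limma). These 6 genes were lower in the occluded artery of every rat. The fit also left out non-occluded F19, whose rat gave no occluded artery. Without pairing, all of these genes but Pdlim7 also fell once non-occluded F19 and control F26 were left out. For those genes the calls cannot be credited to the pairing alone.

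**Figure D4:**
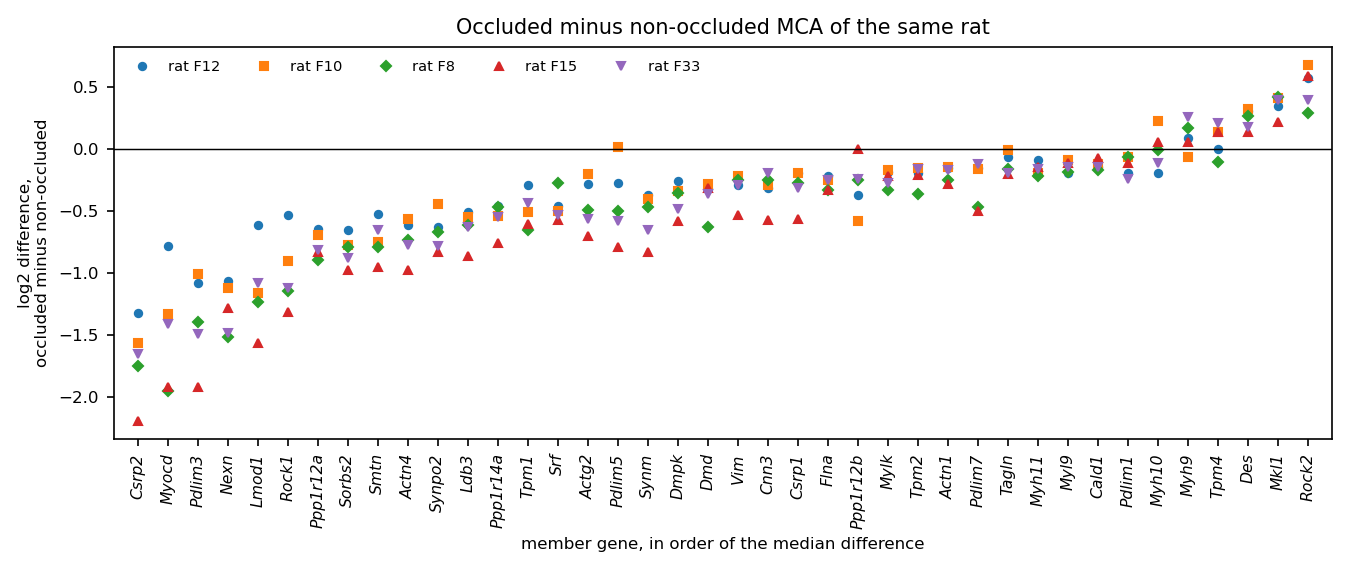
Log2 signal of the occluded minus that of the non-occluded artery within each rat (y axis) for the 40 members (x axis, in order of the median of the 5 rats), with 1 symbol per rat. The points of 33 members lie below 0, except that Ppp1r12b in rat F15 lies at 0 after rounding. Those of Des, Mkl1 and Rock2 all lie above 0.

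Genes of the same pathway outside the gene set were taken from 3 lists. Of 31 other measured actins, myosin chains and actin-binding proteins, 7 rose and 7 fell in occluded against control MCAs (median 0.02). Over all genes 19.3% rose and 22.8% fell in this comparison. Lims2, an adaptor at integrin adhesions, averaged 8.64 in occluded and 10.07 in control MCAs, a log2 fold change of -1.43 (SE 0.17, adjusted p = 3.00e-06, limma). Tpm3, a further tropomyosin, rose by 0.80, and Myl12b, a regulatory light chain of non-muscle myosin, fell by 0.42 on the log2 scale.

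Of 20 measured SRF partners and other transcription factors of smooth muscle, 6 rose and 5 fell (median 0.00). Hey2, a target of Notch signalling, fell by 0.93, Mef2d, a MADS-box factor related to SRF, fell by 0.84, and Tead1, a factor of the Hippo pathway, rose by 0.51. Of 13 measured markers of smooth muscle outside the gene set, 1 rose and 7 fell (median -0.47). Gucy1a3, part of the guanylate cyclase that senses nitric oxide, averaged 7.83 in occluded and 9.67 in control MCAs, a log2 fold change of -1.84 (SE 0.24, adjusted p = 7.21e-06, limma). Pln (phospholamban, which restrains the calcium pump of the sarcoplasmic reticulum) fell by 0.73 and Itga7 (an integrin that binds laminin) by 1.08. The direction of the called genes was thus mostly downward in the smooth muscle markers. In the lists of actin-binding proteins and transcription factors called genes went both ways, as they did over all genes (19.3% higher, 22.8% lower). In the non-occluded MCAs, 1 actin-binding gene and 1 transcription factor rose by limma, and none of these lists' genes fell, beside 1.79% and 2.12% of all genes.

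Calls among markers of other cells stand beside the shares of all genes in occluded against control MCAs, 19.3% higher and 22.8% lower. Of the 6 astrocyte markers 1 rose and none fell in occluded against control MCAs. Gfap averaged 9.29 in occluded and 6.83 in control MCAs, a log2 fold change of 2.46 (SE 0.29, adjusted p = 2.49e-06, limma). The mean log2 signal of the list was 7.69 to 9.04 in occluded, 7.13 to 8.09 in non-occluded and 6.75 to 8.36 in control MCAs, and the log2 of its summed signal was 10.72 to 11.80, 10.01 to 11.52 and 9.70 to 11.83. The part of astrocyte RNA in the lower values of the contractile genes was not tested. The astrocyte mean was higher in the occluded artery of all 5 rats, at 7.69 against 7.13 in the non-occluded artery of rat F12, 9.04 against 7.44 in F10, 7.94 against 7.78 in F8, 8.39 against 7.46 in F15 and 8.89 against 8.09 in F33. The mean of the 40 members was lower in the occluded artery of the same rats, at 10.74 against 11.07 in F12, 10.66 against 11.03 in F10, 10.48 against 10.98 in F8, 10.51 against 11.10 in F15 and 10.60 against 11.06 in F33. The occluded artery of rat F12 had an astrocyte mean of 7.69 and a member mean of 10.74, against 7.79 and 10.72 in control F26. These 2 arrays lie at the ends of their groups, F12 with the highest occluded value for 22 members and F26 with the lowest control value for 32. Among arrays numbered 12 to 20 the astrocyte means of the 2 occluded arteries, 7.69 and 7.94, overlapped those of the 3 controls, 7.79 to 8.36. The link between astrocyte and member means was not tested.

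**Figure D5:**
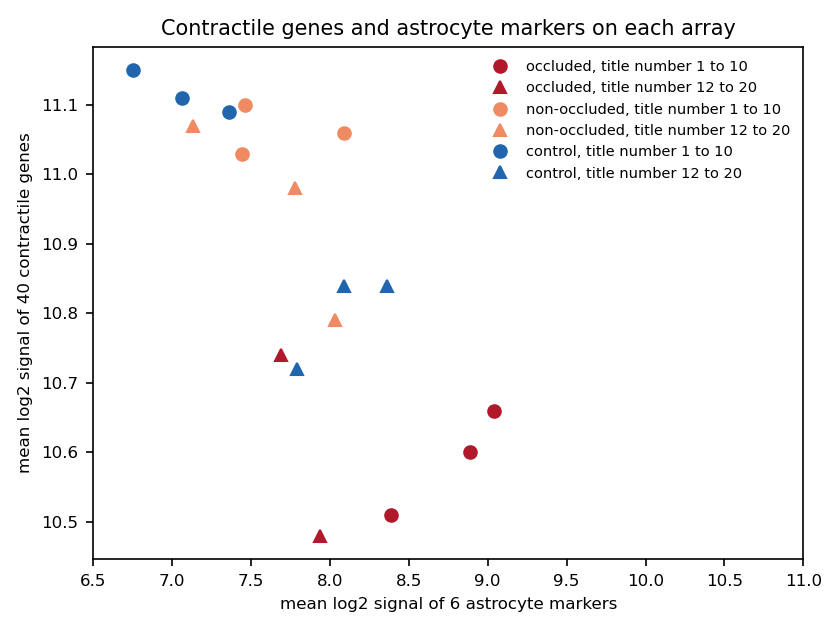
Mean log2 signal of the 40 members (y axis) against that of 6 astrocyte markers (x axis) on each of the 17 arrays, with colour for the group and circles or triangles for arrays numbered 1 to 10 or 12 to 20. The 3 low-numbered controls lie at 11.09 to 11.15 and the 3 others at 10.72 to 10.84, while the occluded MCAs lie at 10.48 to 10.74 and the non-occluded at 10.79 to 11.10.

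The other marker lists are given for occluded against control MCAs, where 19.3% of all genes rose and 22.8% fell. Of 4 neuronal markers 2 rose, Snap25 by 0.57 and Syt1 by 0.36, and none fell, and of 5 oligodendrocyte markers 1 rose, Mobp by 0.38, and none fell. Of 10 endothelial markers 2 rose and 3 fell, and their mean signal was 9.04 to 9.68 in occluded and 9.35 to 9.67 in control MCAs. Of 7 pericyte markers 2 rose and 1 fell. Pericytes share many genes with smooth muscle, and the called ones were Kcnj8 at 1.73, Abcc9 at 1.07 and Pdgfrb at -1.08. Of 9 fibroblast markers none rose and 2 fell, Col1a2 and Col1a1, by 0.34 and 0.39 on the log2 scale. Of 8 microglia and macrophage markers 1 rose and 2 fell. Of 3 neutrophil markers 2 rose, S100a9 by 1.49 and Mmp9 by 1.19, and none fell. Of 3 skeletal muscle markers 1 fell, Acta1 by 0.50 on the log2 scale, while 5 platelet markers (log2 fold changes 0.06 to 0.18) and 2 erythrocyte markers (-0.50 and -0.45) did not pass the test, with unadjusted p of 0.0894 or more (limma). The 10 smooth muscle markers fixed for this check averaged 9.98 to 10.27 in occluded, 10.27 to 10.62 in non-occluded and 10.06 to 10.78 in control MCAs. Array signals do not reach 0, so no marker can be called absent, and the part of these cells in the results was not tested.

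The size of the differences was also read against the signal. The 9 members with a mean signal of 12 or more had a median log2 fold change of -0.16 in occluded against control MCAs (1 higher, 5 lower), against -0.44 for the 31 others (4 higher, 17 lower). Of the 48 genes of the series in this upper range, the 9 members included, 39.6% were called and 27.1% fell. The link between signal and size of change was not tested.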

How the data were processed

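RNA of 17 MCAs was hybridised to Affymetrix rat gene arrays. The authors made the deposited log2 values with robust multi-array averaging, quantile normalization included, in Affymetrix Expression Console 1.1.2, and dropped dim probe sets (below the negative controls' median in 80% of samples) comparison by comparison. The authors' deposited columns of fold change, p-value, score and q-value hold their own comparisons and were not used. Of 14143 probe sets, the 13809 present on all arrays were tested. Of these, 327 with several symbols and 22 whose symbols had turned into dates were left out of the 13179 genes, and the brightest probe set stood for a gene.

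Members and lists were chosen with earlier results of these data known. Groups were compared by limma 3.58.1 (R 4.3.3), one mean per group, 14 residual degrees of freedom, Benjamini-Hochberg over all probe sets, threshold 0.05, in both directions. The number of arrays limits the precision. Per-array values are given for the 3 members of each class with the largest called change in occluded against control MCAs, for members called in non-occluded MCAs or against their class, and for defining genes. Outside the members, the 3 genes of a list with the smallest p are named, and 1 further list is not reported here. Arteries of the same rat, paired through the labels, deviated together (correlation 0.156 to 0.486 for 5 rats, median 0.351, against -0.0713 for 25 other pairs). On simulated data for occluded against control MCAs limma recovered 85.1%, 95.5% and 100% of changes of 1.5-fold, 2-fold and 4-fold over 13809 probe sets, with 10 false calls of 197. The simulated noise was independent between probe sets, with no shift shared by an array or rat, and 67, 67 and 66 probe sets were changed. The real arrays had such shared shifts and many more calls, so these rates need not hold for them. The splits by array number and the removal of control F26 with non-occluded F19 were added after seeing the data. Probe set coordinates are left out because no source used here names their build. Sequences are from RefSeq (GRCr8). Tables were made in Python 3.11.15 (pandas 2.3.3, numpy 2.4.6).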

Additional observations from a re-analysis of the deposited data

Results flagged for a closer look

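In 12 of 120 combinations of a member and a group 1 array lay far from the others by Dixon's test, which by chance flags about 1 in 20. Of these, 9 were the lowest value of the non-occluded artery of rat F19. Its log2 signals were 12.22 for Cald1 (nearest other array 12.38), 11.74 for Tpm2 (12.02), 9.97 for Lmod1 (10.55), 12.74 for Myh11 (12.91) and 10.95 for Smtn (11.38). They were 11.07 for Synpo2 (11.32), 12.43 for Flna (12.63), 10.07 for Nexn (10.41) and 12.65 for Csrp1 (12.95). Rat F19 gave no occluded artery, so these values do not enter the differences within rats. The occluded artery of rat F8 was lowest for Tpm2 at 11.66 (11.86). The artery of control rat F26 was highest for Myh9 at 10.35 (10.16) and lowest for Vim at 13.25 (13.33).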

How the results depend on the processing

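No called member changed direction under any alternative, and the counts stayed within a factor of 1.5 of the main counts except as follows. In occluded against control MCAs, the 5 members higher became 3 at an adjusted p under 0.01, 2 at a minimum of 1.5-fold, 3 by significance analysis of microarrays and 3 among arrays numbered 12 to 20. The 22 lower became 12, 14 and 7 under the last 3 of these. In occluded against non-occluded MCAs, the 3 higher became 0 at 1.5-fold, 1 by significance analysis of microarrays and 0 in the upper range of array numbers, where 3 had an unadjusted p under 0.05. The 24 lower became 11, 12 and 9. In non-occluded against control MCAs, the 2 higher became 1 at an adjusted p under 0.01, at 1.5-fold, by significance analysis of microarrays and among arrays numbered 1 to 10, 0 in the upper range, with 5 at an unadjusted p under 0.05, and 4 with the array number as a covariate, and the 0 lower became 1, Dmpk, with array weights or without control F26 and non-occluded F19. The upper range held fewer arrays, 2 occluded, 3 non-occluded and 3 control, and shares of all genes at an unadjusted p were not counted. With 1 array left out, occluded against control gave 4 to 5 higher and 21 to 26 lower, occluded against non-occluded 3 to 3 higher and 19 to 25 lower, and non-occluded against control 1 to 3 higher and 0 to 1 lower. In occluded against non-occluded MCAs, Csrp1 lost its call without non-occluded F8, F10, F12, F15 or F33 or occluded F8, F15 or F33 (adjusted p 0.0671 to 0.138), Flna without non-occluded F10, F12 or F15 or occluded F8 or F15 (0.0517 to 0.0703) and Ldb3 without these or occluded F33 (0.0548 to 0.0673). Pdlim5 lost it without non-occluded F15 or occluded F8 (0.0507 to 0.0583), Ppp1r14a without non-occluded F10 or F12 or occluded F15 (0.0503 to 0.0755), and Actg2 gained one without non-occluded F19 (0.0119). Myh11 also lost its call against controls with cyclic loess, median centring or the 2 groups alone. With rat as a fixed block 30 members were lower and 3 higher between the arteries. This fit, which left out non-occluded F19, ended no call there. Over all genes, non-occluded against control gave 236 higher and 280 lower, 300 and 164 with arrays centred on their medians, and 271 and 238 with cyclic loess. Depth does not apply to arrays, whose precision is set by their number and the spread between arteries. The causes of these shifts were not tested.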
